A study of Homo sapiens with 2 samples.

Results

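The brighter microRNA genes described here are 172 genes of the HT1080 fibrosarcoma array data whose probe sets gave a mean log2 expression value of 5.0 or more over both arrays. They were picked from 1072 microRNA genes read by 1236 named probe sets, on an array with 53617 probe sets and 14884 named genes in all. A gene entered when the platform gave its probe set a single symbol beginning with MIR and a digit, or with MIRLET7. Host genes ending in HG were left out, and the brightest probe set stood for a gene with several. The level was thus the measure that chose the members, and levels are given as a description. HT1080 is an established human fibrosarcoma line. One array holds RNA of HT1080 cells infected with virus carrying an shRNA against cMyc, and the other holds RNA of cells infected with virus carrying a non-targeting control shRNA. Both cultures were harvested at 48 hours. The labels name 1 sample of each kind, so no value has a replicate, no test was run, and every difference describes these 2 arrays only.

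MicroRNAs are short RNAs that guide Argonaute proteins to messenger RNAs and lower their translation and stability. A long primary transcript is cut in the nucleus to a hairpin, the hairpin is exported and diced, and 1 strand of the duplex is loaded. Bases 2 to 8 of the mature strand, the seed, set most of its targets, so microRNAs with the same seed form a family. MYC is known both to activate some microRNA genes and to repress others, let-7 among them. Total RNA was extracted with TRIZOL and purified further with the RNeasy micro kit, whose columns are made to keep longer RNAs, and mature microRNA was not measured apart from its hairpin, its primary transcript or an overlapping host transcript.

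Mature sequences from RefSeq (GRCh38.p14) were matched to 151 members, and 13 seeds were shared by 27 of them. The sequences below are those of the larger and some of the paired families and of 9 of the 10 members at least 2-fold apart, to which the results return, and capitals mark the seed. The largest family by seed among the members was let-7, with 5 genes. These include MIR4500, whose mature strand matches the others in the seed and is shorter.
hsa-let-7a-5p: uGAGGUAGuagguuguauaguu
hsa-let-7d-5p: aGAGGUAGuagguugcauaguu
hsa-let-7e-5p: uGAGGUAGgagguuguauaguu
hsa-miR-98-5p: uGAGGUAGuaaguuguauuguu
hsa-miR-4500: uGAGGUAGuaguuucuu

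The 6 MIR3689 members on chromosome 9 each lie within 10 kb of another and share seeds in groups of at most 4. The 5p strands of MIR3689A and MIR3689B and the mature strand of MIR3689E have the same letters throughout, and MIR3689D1 and MIR3689D2 give one and the same mature strand. Signals of these copies cannot be told apart where probes match more than 1 of them.
hsa-miR-3689a-5p: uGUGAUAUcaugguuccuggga
hsa-miR-3689f: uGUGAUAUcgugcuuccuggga
hsa-miR-3689d: gGGAGGUGugaucucacacucg

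Smaller families were pairs. MIR130B and MIR4295 share one seed, MIR221 and MIR222 another, and MIR25 and MIR92B one more.
hsa-miR-130b-3p: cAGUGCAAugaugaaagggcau
hsa-miR-4295: cAGUGCAAuguuuuccuu
hsa-miR-221-3p: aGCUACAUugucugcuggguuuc
hsa-miR-222-3p: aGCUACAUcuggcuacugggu
hsa-miR-25-3p: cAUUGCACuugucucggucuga
hsa-miR-92b-3p: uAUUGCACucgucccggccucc

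The other members at least 2-fold apart whose sequence is shown have seeds of their own within the member set.
hsa-miR-4682: uCUGAGUUccuggagccuggucu
hsa-miR-4756-5p: cAGGGAGGcgcucacucucugcu
hsa-miR-4527: uGGUCUGCaaagagaugacugu
hsa-miR-196b-5p: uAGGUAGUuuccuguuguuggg
hsa-miR-3192-5p: uCUGGGAGguuguagcaguggaa
hsa-miR-3939: uACGCGCAgaccacaggauguc
hsa-miR-3198: gUGGAGUCcuggggaauggaga

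MYC, the gene the shRNA targets, read 6.16 on the cMyc shRNA array and 7.09 on the control array on the log2 scale, a log2 difference of -0.93 or 1.91-fold lower. In such bulk RNA, fewer cells that express a gene and less RNA per cell cannot be told apart. The array medians were 3.73 for cMyc shRNA and 3.68 for control. Of the mesenchymal markers, 7 of the 11 with a named probe set reached 5.0, with FN1 (fibronectin) brightest at a mean of 12.5. Epithelial markers reached 5.0 in 1 of 10 (KRT18), haematopoietic markers in 1 of 3 (CD68), muscle markers in 1 of 2 (DES) and endothelial markers in 0 of 3.

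Few brighter microRNA genes differed much between the arrays. By the 2-fold rule 5 of the 172 members were higher with cMyc shRNA and 5 were lower, while 162 lay within 2-fold. The same rule took 2.85% of all 16631 probe sets at or above 5.0 as higher and 5.04% as lower, and among the 7019 other named genes at that level the shares were 2.07% and 5.01%. The members' shares were 2.91% in each direction, so the share of higher members was near that of all probe sets, and the share of lower members was below it, a gap that was not tested.

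**Figure D1:**
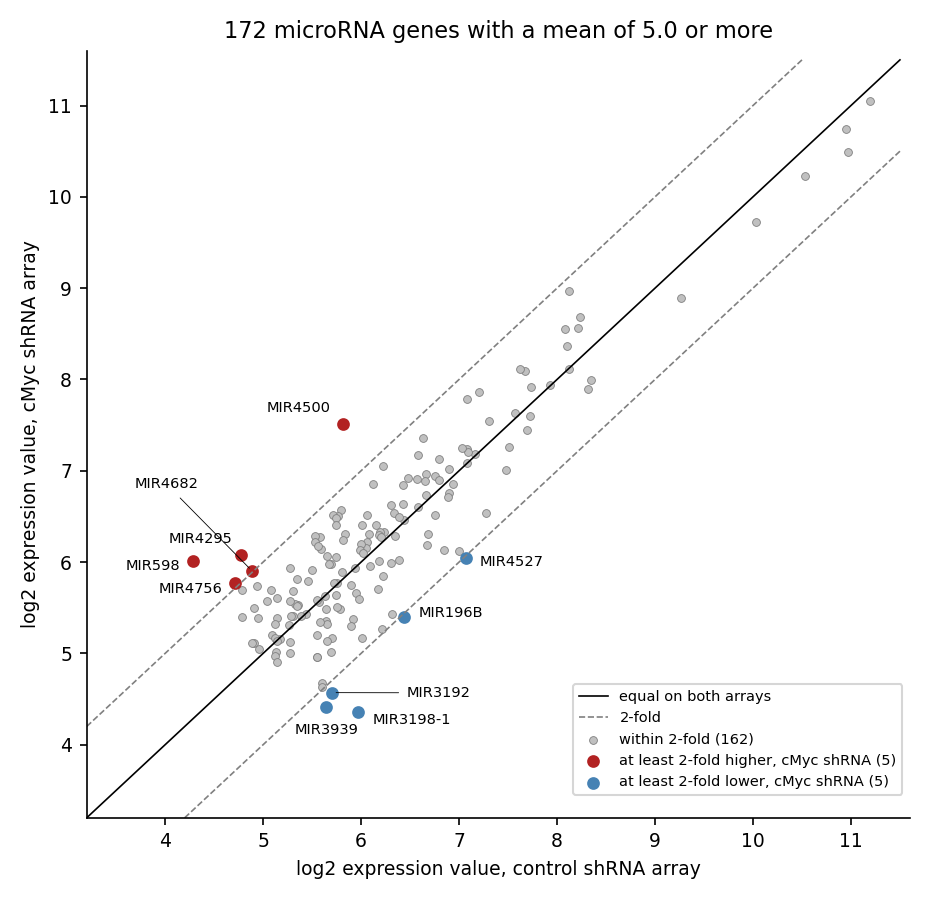
Log2 expression value of each of the 172 microRNA genes on the cMyc shRNA array (vertical axis) and on the control shRNA array (horizontal axis), 1 point per gene and 1 array per condition. The dashed lines mark 2-fold, beyond which 5 genes lie on each side, and 162 genes lie between them.

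The members leaned slightly upwards as a group. The log2 difference was above 0 in 104 members and below 0 in 68, with a median of 0.09 and quartiles of -0.24 and 0.40. All probe sets at or above 5.0 had a median of -0.03, with 47.6% above 0, and the 900 microRNA genes below 5.0 had a median of 0.00. By level, 41 of 57 members with a mean from 6 to 7 were above 0, against 45 of 84 from 5 to 6 and 18 of 31 at 7 or more. With the arrays centred on their medians the member median was 0.049. Past 2-fold in either direction were 9.52% of the members with a mean from 5 to 6, 3.51% of those from 6 to 7 and 0 of the 31 at 7 or more. All probe sets at those levels had 9.21%, 9.42% and 5.94% past it.

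**Figure D2:**
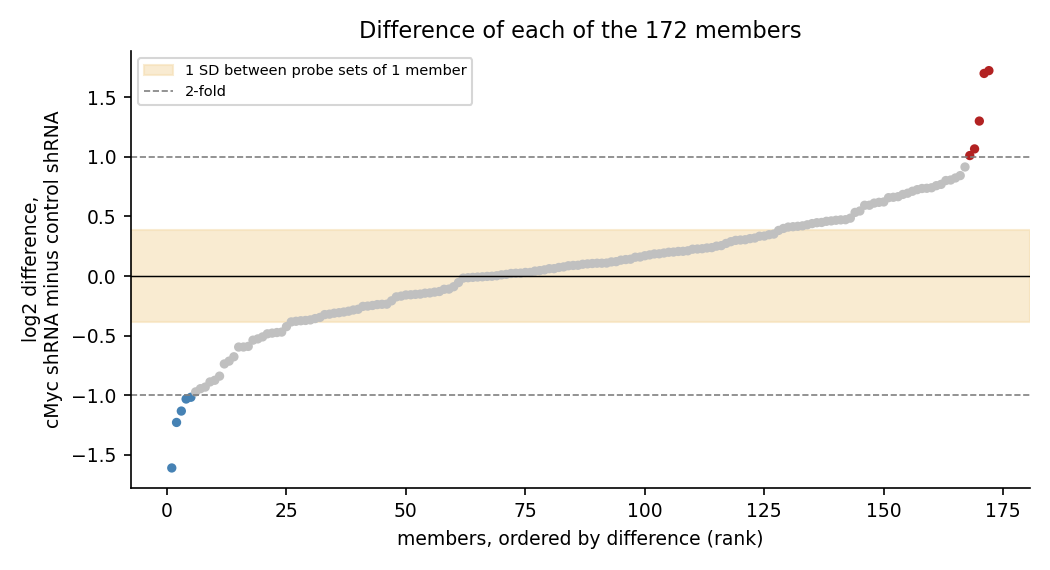
Log2 difference, cMyc shRNA minus control shRNA, of the 172 members in order of size. The shaded band spans 1 SD (0.39) of a single probe set's difference on either side of 0 and holds 103 members, and the dashed lines mark 2-fold.

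The highest member was MIR598, which read 6.01 on the cMyc shRNA array and 4.29 on the control array, a log2 difference of 1.72. MIR4500, the let-7 seed relative, read 7.51 with cMyc shRNA and 5.81 with control, a log2 difference of 1.70 or 3.25-fold. It was the only one of the 5 higher members with both arrays above 5.0. Its hairpin lies on the minus strand at chr13:87618665-87618740, inside the long noncoding RNA gene MIR4500HG, and all positions are those of the RefSeq hairpins on GRCh38.p14.

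MIR4295, of the miR-130 seed, read 6.08 with cMyc shRNA and 4.78 with control, 2.46-fold higher, with its hairpin on the plus strand at chr10:112634170-112634254 inside VTI1A. MIR4756 (chr20:54068408-54068485, minus strand) read 5.78 with cMyc shRNA and 4.71 with control, 2.09-fold higher. MIR4682 (chr10:119958513-119958592, plus strand) read 5.90 with cMyc shRNA and 4.89 with control, 2.01-fold higher, and was within 2-fold after median centring, at a log2 difference of 0.97. These 3 all had a control value under 5.0.

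The lowest member was MIR3198-1, which read 4.36 on the cMyc shRNA array and 5.97 on the control array, a log2 difference of -1.61 or 3.05-fold lower. Its hairpin lies on the minus strand at chr22:17764180-17764259, inside BID, a gene of the BCL2 family that promotes cell death. MIR3939 (chr6:166997807-166997912, minus strand) read 4.42 with cMyc shRNA and 5.64 with control, 2.34-fold lower. MIR3192 (chr20:18470615-18470691, plus strand) read 4.57 with cMyc shRNA and 5.70 with control, 2.19-fold lower. For these 3 genes it was the cMyc shRNA value that lay below 5.0.

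MIR196B, a microRNA of the HOXA homeobox cluster (chr7:27169480-27169563, minus strand), read 5.40 with cMyc shRNA and 6.43 with control, 2.04-fold lower. MIR4527 (chr18:47380496-47380565, plus strand) read 6.05 with cMyc shRNA and 7.07 with control, 2.02-fold lower. Both stayed above 5.0 on both arrays. Both calls ended after quantile normalization, with log2 differences of -0.99 for MIR196B and -0.95 for MIR4527, and MIR4527 was also at -0.99 after loess. Each of the 10 members past 2-fold was read by 1 probe set, so none of these differences has a repeat measurement. Of the 10, 3 had both arrays at or above 5.0, as had 151 of all 172 members. The rules themselves bring about part of that contrast. A gene with a mean just above 5.0 and arrays 2-fold apart must have 1 array below 5.0. The other 7 thus met the level rule only through their higher array.

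Repeat probe sets gave a second reading of some members. There were 29 members with more than 1 probe set, and in 5 of them the brightest 2 were copies with equal values. In the other 24, the difference of the second probe set fell on the same side of 0 as the first in 16 and on the other side in 8. Over these 24 genes a single probe set's difference had an SD of 0.39. With both probe sets at 5.0 or more it was 0.36 over 17 members, of which 14 were on the same side and 3 were not, and 0.28 over 170 other named genes. Both probe sets were read on the same arrays, so this SD holds no variation between cultures. Whether the probe sets of a gene read the same RNA was not tested.

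The widest gap was in MIR3622A. Its brighter probe set read 6.51 with cMyc shRNA and 5.77 with control (0.74), and the other read 5.49 with cMyc shRNA and 6.39 with control (-0.90). MIR130B had 0.72 on its brighter probe set and -0.04 on a second one at 4.66 with cMyc shRNA and 4.70 with control. Opposite signs were also seen in MIR2909 (-0.47 and 0.27), MIR338 (-0.01 and 0.82), MIR3689F (-0.31 and 0.17), MIR4521 (0.12 and -0.56), MIR486-1 (0.20 and -0.40) and MIR642A (0.03 and -0.25).

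Other members gave the same sign on both probe sets. MIR4516 was lower on both, with a difference of -0.87 on the brighter probe set and of -0.94 on the other, which read 5.53 with cMyc shRNA and 6.47 with control. MIR4442 was higher on both, by 0.71 at 7.79 with cMyc shRNA and 7.08 with control, and by 0.99 on the dimmer probe set. MIR3147 had 0.47 and 0.52, MIR4710 had 0.80 and 0.38, and MIR877 had 0.21 and 0.22. MIR4530 was lower on both, with -0.84 and -0.39 on probe sets of nearly equal level. None of these pairs reached 2-fold on either probe set.

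**Figure D3:**
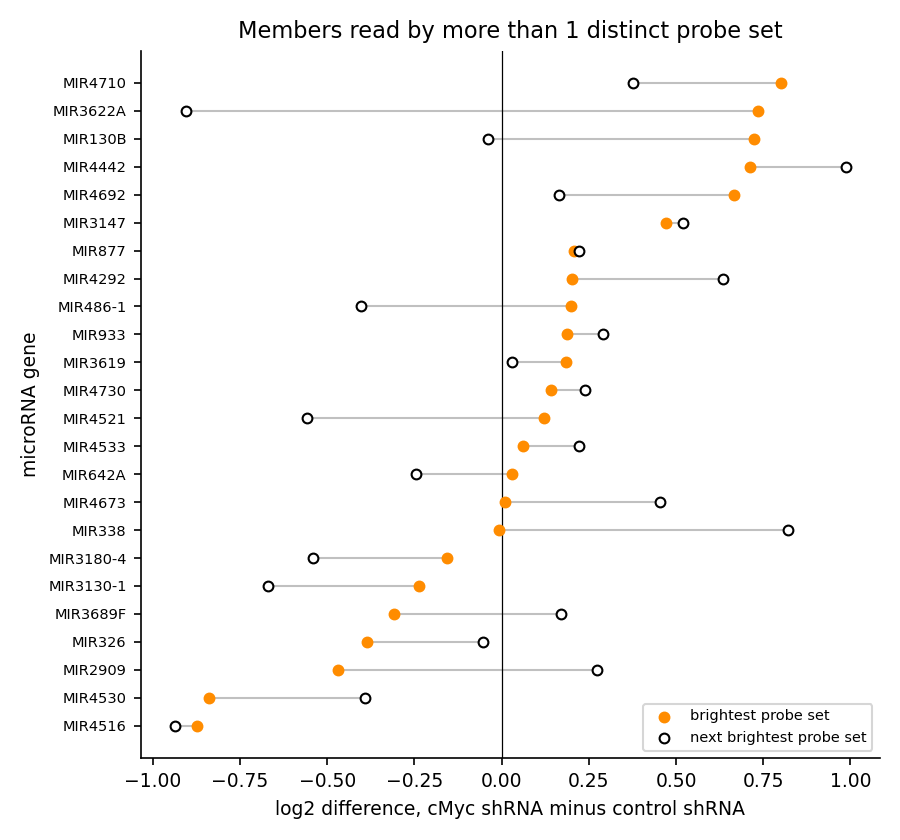
Log2 difference, cMyc shRNA minus control shRNA, on the brightest (filled) and next brightest (open) probe set of the 24 members read by more than 1 distinct probe set. Lines join the probe sets of a gene, and 8 of them cross 0.

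Of the 8 brightest members, 5 were MIR3689 genes, and these differed little between the arrays. MIR3689A read 11.05 on the cMyc shRNA array and 11.20 on the control array, and MIR3689B read 10.74 with cMyc shRNA and 10.95 with control. MIR3689D2 (10.22 with cMyc shRNA, 10.54 with control), MIR3689F (9.73 and 10.03 in the same order) and MIR3689E (8.89 and 9.27) followed, and MIR3689D1 was dimmest with a mean of 8.17. All 6 MIR3689 members were below 0, with differences from -0.38 to -0.14, while the second probe set of MIR3689F was above 0 at 0.17. Since these genes share sequence, the 6 values are not 6 separate observations.

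Outside that family the brightest members were MIR4737, MIR1299 and MIR574. MIR4737 read 10.49 with cMyc shRNA and 10.97 with control (-0.48). MIR1299 read 8.97 with cMyc shRNA and 8.13 with control, and its difference of 0.84 was the highest among the 31 members at 7 or more. MIR574 read 8.68 with cMyc shRNA and 8.23 with control (0.45) on a probe set and its copy.

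Of the 13 shared seeds, 9 had members that all lay on the same side of 0 and 4 had members on both sides. The seeds are not separate observations. Some of the 9 belong to the MIR3689 copies or to the neighbours MIR221 and MIR222. Among the 4, MIR98 and MIRLET7A3 share more than 1 seed. In the let-7 family MIR4500 was 1.70 higher, whereas the other 4 genes lay within 1.5-fold. MIRLET7D read 5.98 with cMyc shRNA and 5.70 with control (0.29), and MIRLET7E read 5.98 with cMyc shRNA and 5.68 with control (0.30). MIR98 read 5.42 with cMyc shRNA and 5.28 with control (0.13), while MIRLET7A3 was lower, at 5.38 with cMyc shRNA and 5.92 with control (-0.54). Of the let-7 genes below the level rule, MIRLET7A1 was higher (0.25). Lower were MIRLET7I (-0.52), MIRLET7A2 (-0.54), MIRLET7G (-0.53), MIRLET7F1 (-0.50), MIRLET7C (-0.21) and MIRLET7F2 (-0.06). LIN28B, which blocks let-7 maturation, read 5.82 with cMyc shRNA and 5.18 with control (0.64).

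In the pair with the miR-130 seed both brightest probe sets were higher, MIR4295 by 1.30 and MIR130B by 0.72, with the second MIR130B probe set at -0.04. MIR3125 (0.68) and MIR3916 (0.73) also share a seed and lay close to each other. MIR25 (-0.28) and MIR92B (0.02) lay nearer to 0. MIR181D had 0.08 and its seed partner MIR4262 had 0.59, and MIR3130-1 (-0.24) and MIR4482 (0.47) lay on opposite sides of 0. MIR1301 (0.66) and MIR5047 (0.35) were both above 0, and MIR197 (-0.11) and MIR3132 (-0.93) both below it.

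The members known for a link to MYC lay within 1.5-fold between the arrays, as did most of the 172 members. Their counts in the MYC lists lay near the share over all microRNA genes, where 172 of 1072 were members. Of 19 genes listed as activated by MYC, 12 had a named probe set and 2 were members. MIR106B read 5.13 on the cMyc shRNA array and 5.15 on the control array (-0.01), and MIR25 read 5.00 with cMyc shRNA and 5.28 with control. The MIR17 to MIR92A1 genes of the best known MYC-activated cluster had no named probe set and were not analysed here.

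Of 39 genes listed as repressed by MYC, 37 had a named probe set and 5 were members. Beside MIRLET7A3, MIRLET7D, MIRLET7E and MIR98 this was MIR24-2, which read 5.93 with cMyc shRNA and 5.94 with control. Over all 37 listed genes 1 was at least 2-fold up, MIR30A, which at 3.90 with cMyc shRNA and 2.89 with control was no member, and 0 were 2-fold lower. All microRNA genes below 5.0 had 2% past that fold upwards and 1.67% downwards. The median over the 37 genes was -0.05, and over the 12 of the activated list it was 0.04.

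The 4 members listed as common in mesenchymal and cancer cells lay within 1.5-fold between the arrays, as did most of the 172 members. MIR221 read 7.26 with cMyc shRNA and 7.51 with control (-0.25), and its neighbour MIR222 read 6.85 with cMyc shRNA and 6.94 with control (-0.09). MIR21, one of the most widely raised microRNAs in tumours, read 6.46 with cMyc shRNA and 6.44 with control (0.02). MIR210, a target of the hypoxia response, read 6.41 with cMyc shRNA and 6.01 with control (0.40). Among all microRNA genes 172 of 1072 were members, and the lists counted next are too short to show a departure from that share. Of the mesenchymal and cancer list 4 of 16 genes with a probe set were members, and 1 of 7 of the interferon and inflammation list, MIR21. The p53 list had 0 members of 10. Its MIR194-2 fell just short of the level rule, at 5.70 with cMyc shRNA and 4.23 with control (1.47).

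The level rule cut through a continuous range. Just inside it lay MIR1180 (mean 5.00, difference 0.23), MIR3925 (5.01, 0.09) and MIR637 (5.01, 0.21). Just outside lay MIR3922 (4.99, -0.04), MIR4450 (4.98, -0.06) and MIR3691 (4.97, -1.10).

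Several further members with a long record in the literature lay within 2-fold. Apart from MIR326 and MIR328, which have repeat probe sets, they were chosen after their values were seen. MIR328 read 5.27 with cMyc shRNA and 6.22 with control (-0.94), with a copy of the same values. MIR324 read 5.43 with cMyc shRNA and 6.32 with control (-0.89). MIR152 had -0.53, MIR339 -0.48 and MIR326 -0.38, with -0.05 on a second MIR326 probe set of nearly equal level. On the other side MIR412 had 0.70, MIR139 0.61 and MIR127 0.43. MIR375 (0.24), MIR185 (0.11), MIR342 (0.01), MIR197 (-0.11) and MIR191 (-0.24) lay closer to 0. Because most were chosen after their values were seen, they cannot show whether such genes share a direction.

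Many microRNA genes lie inside another gene and are cut out of its transcript, so the host gives a separate reading. In the RefSeq gene table of GRCh38.p14, 57 members lay within the span of a same-strand gene that had a named probe set, in 53 different host genes. Another 37 lay in a same-strand gene with no named probe set, 14 in a gene of the other strand, 21 in a gene whose strand was not in the tables, and 28 in no listed gene. For 15 members the strand of the microRNA itself was not in the tables. Whether a hairpin is exonic or intronic was not analysed here.

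Of the 57 paired members 2 were at least 2-fold higher and 1 lower. The 5 pairs whose host was past 2-fold came from 4 host genes, and 0 of them had a member past it. With so few paired members past 2-fold, that 0 cannot show whether members and hosts differ together. MCM7, a subunit of the replicative helicase, read 6.90 on the cMyc shRNA array and 8.06 on the control array, 2.24-fold lower, while MIR25 and MIR106B within it were at -0.28 and -0.01. KIF15, a mitotic kinesin, read 3.40 with cMyc shRNA and 4.94 with control, 2.91-fold lower, beside 6.89 with cMyc shRNA and 6.66 with control for MIR564 (0.24). FADS1, a fatty acid desaturase, read 6.16 with cMyc shRNA and 7.34 with control, 2.26-fold lower, and MIR1908 was at -0.17. LIFR, the receptor for leukaemia inhibitory factor, was 2.21-fold higher, at 6.21 with cMyc shRNA and 5.07 with control, and MIR3650 was at -0.17.

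For 3 members past 2-fold a same-strand host was read, and each lay on the same side of 0 as its host. They were picked for their size, and MIR4295 and MIR3198-1 each had 1 array below 5.0. MIR4500HG read 4.62 with cMyc shRNA and 3.77 with control (0.85), beside 1.70 for MIR4500. VTI1A, a SNARE protein gene, read 6.39 with cMyc shRNA and 5.95 with control (0.44), beside 1.30 for MIR4295. BID read 6.62 with cMyc shRNA and 6.94 with control (-0.32), beside -1.61 for MIR3198-1.

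Over all 57 pairs, member and host were on the same side of 0 in 31 and not in 26. The correlation of their log2 differences was r = 0.18, a description over pairs that share both arrays and in part a host. The brightest hosts differed little: DDX5 had 0.14 beside 0.35 for MIR5047, VMP1 0.20 beside 0.02 for MIR21, and ARF1 -0.07 beside 0.16 for MIR3620. AATF had -0.05 beside -0.47 for MIR2909, and ITCH had 0.05 beside 0.19 for MIR644A.

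**Figure D4:**
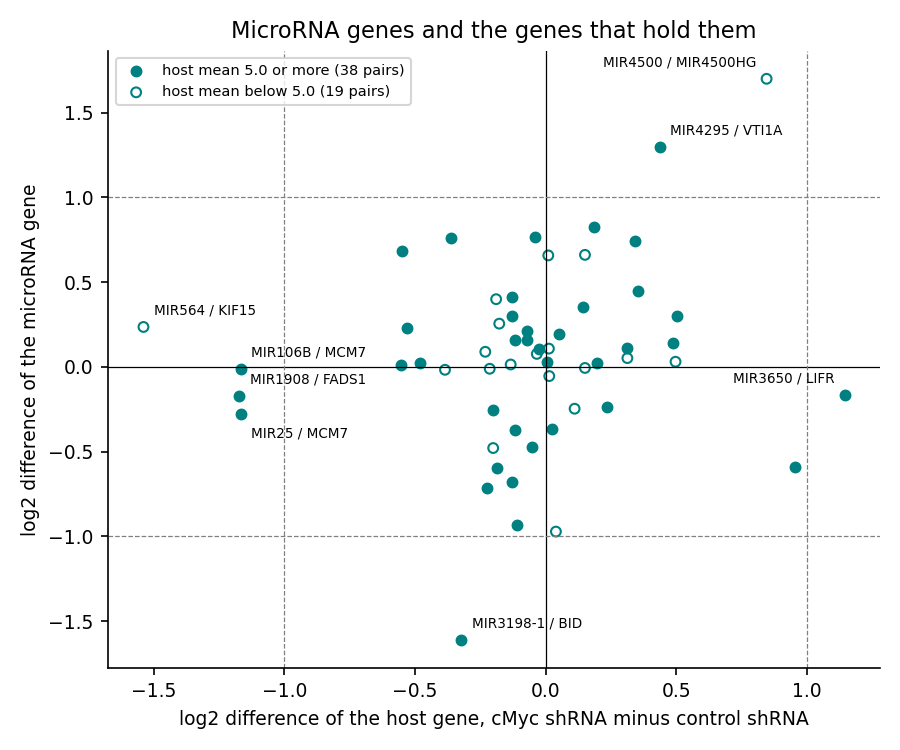
Log2 difference, cMyc shRNA minus control shRNA, of 57 microRNA genes (vertical axis) against that of the same-strand gene that holds them (horizontal axis), with hosts at a mean of 5.0 or more filled. Dashed lines mark 2-fold, which 2 microRNA genes pass upwards and 1 downwards, and the pairs spread over all quadrants.

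The members' hairpins were richer in G and C at the median, though they ranged from 33.0% to 80%. The hairpin sequence was in RefSeq for 147 members and 737 of the microRNA genes below 5.0. Its share of G and C had a median of 61.3% in members, with quartiles of 54.1% and 66.5%, and a median of 45.9% in genes below 5.0, with quartiles of 40.4% and 53.8%. The share of microRNA genes that were members was 1.16% (2 of 173) below 40% GC, 7.47% from 40%, 18.1% from 50%, 46.3% from 60% and 63.6% (21 of 33) from 70%.

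Hairpin length differed little, with medians of 80 bases in members and 83 in the others. Across the 884 genes the level and the GC share correlated with r = 0.58, a description over genes of the same 2 arrays. Within the 147 members that correlation was 0.04, but the level rule cut their range of levels, so it cannot be set against 0.58. Between GC share and log2 difference the members' correlation was -0.12. Of the 9 members past 2-fold with a hairpin sequence, 6 lay below the members' lower quartile: MIR4500 (42.1%), MIR4295 (45.9%), MIR196B (47.6%), MIR3192 (48.1%), MIR4527 (48.6%) and MIR4756 (51.3%). That count was made after the values were seen. The part of probe base composition in the level of a probe set was not tested.

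**Figure D5:**
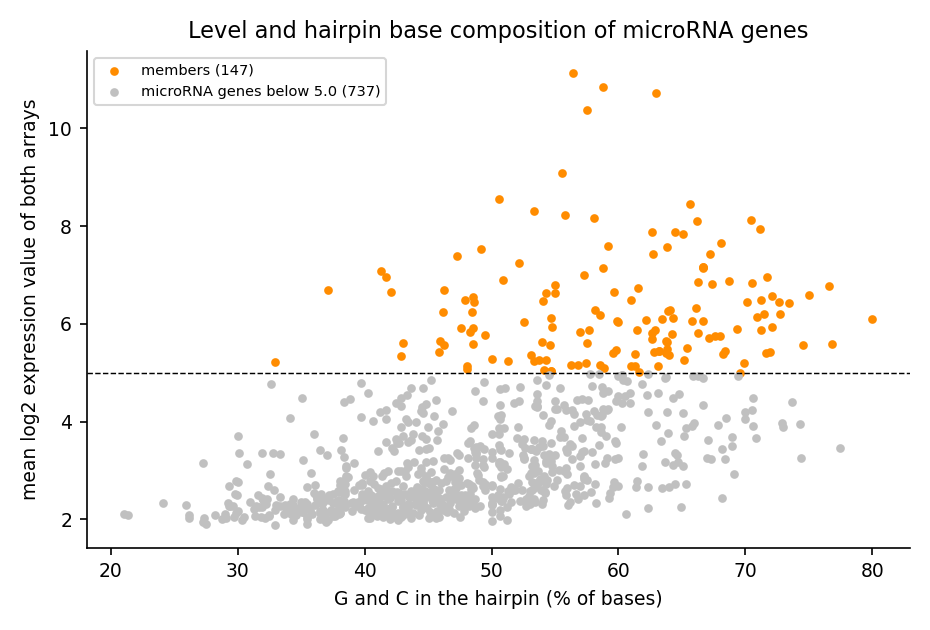
Mean log2 expression value of both arrays against the share of G and C in the hairpin, for 147 members and 737 microRNA genes below 5.0. The dashed line is the level rule at 5.0, and members made up 63.6% of the genes with 70% GC or more and 1.16% of those below 40%.

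Of 33 listed genes that make, use or degrade microRNAs, 20 had a named probe set. Past 2-fold were 2 upwards and 0 downwards, where the shares over all probe sets at or above 5.0 were 2.85% and 5.04%, and the median difference was 0.16. In nuclear processing, DGCR8, the partner of DROSHA, read 5.29 with cMyc shRNA and 6.16 with control (-0.87), and DDX5, a helicase of the processing complex, read 11.01 with cMyc shRNA and 10.87 with control. The export receptor XPO5 read 7.99 with cMyc shRNA and 8.43 with control (-0.45), and the DICER1 partner TARBP2 differed by 0.04. TNRC6A, a scaffold of the silencing complex, was lowest, at 6.46 with cMyc shRNA and 7.37 with control (-0.92).

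Both genes past 2-fold were exonucleases of the decay list. XRN1, the main cytoplasmic 5′ to 3′ exonuclease, read 9.15 with cMyc shRNA and 7.43 with control (1.71), and PNPT1, a mitochondrial 3′ to 5′ exonuclease, read 10.05 with cMyc shRNA and 8.91 with control (1.14). DROSHA, DICER1 and AGO2 had no named probe set and were not analysed here.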

How the data were processed

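Log2 expression values of 53617 probe sets on 2 arrays were deposited by the authors. Per the submitters' processing notes they were made with Affymetrix Expression Console; no source used here gives its version or how background, scale and probe summaries were handled. The log base was inferred from the range of the values, 1.41 to 13.9, and folds assume base 2. There are no detection calls, and the number of arrays limits the precision.

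Symbols came from GEO's platform annotation, which named 16098 probe sets and left 37519 unnamed. All 172 members matched the RefSeq gene table of GRCh38.p14 by gene ID, and 157 the microRNA sequence table. Hosts were same-strand genes whose span held the microRNA gene. Differences are cMyc shRNA minus control shRNA. At 1 array per group no test was run, and a 2-fold rule of size was used for counts. The members, lists and rules were chosen with earlier results of these data known. Genes were named by rule: members past 2-fold, the 8 brightest, listed members, members with repeat probe sets, host pairs past 2-fold or brightest, seed families, the edge of the level rule, and chosen biogenesis genes. MIR92B, MIR1301, MIR3132, members whose second probe set was below 5.0, MIR194-2, MIR30A, DDX5, TARBP2 and LIN28B were named after their values were seen. The let-7 genes below 5.0 and the GC count of members past 2-fold were also added then. Alternatives were 3 scalings, other level and size rules and another probe set rule. Calculations used Python 3.11.15, numpy 2.4.6, pandas 2.3.3, scipy 1.17.1 and statsmodels 0.14.6. The 3 scalings and the 2-fold count were tested on simulated data, and the other steps were not.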

Additional observations from a re-analysis of the deposited data

How the results depend on the processing

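The member median of 0.09 was 0.049 after median centring and 0.14 after quantile normalization, and 0.12 with a level rule of 6.0. Under each of the 3 scalings it stayed above the median of all probe sets at or above 5.0, which was -0.07 after centring, 0.02 after quantile normalization and -0.01 after loess. With the MIR3689 genes counted once, also chosen after seeing the data, the median was 0.11. After quantile normalization 3 members, without MIR196B (-0.99) and MIR4527 (-0.95), were at least 2-fold lower. A level rule of 4.5 gave 11 higher members, and one of 6.0 gave 1 higher and 1 lower, fewer genes being counted. With the threshold on the higher of both arrays there were 11 higher and 8 lower, and with both arrays required at 5.0, an alternative chosen after seeing the data, 1 higher and 2 lower. By construction the size rule moved the counts. At 1.5-fold there were 27 members higher and 17 lower, 1711 probe sets higher and 2302 lower, and 4 biogenesis genes higher and 4 lower. At 3-fold there were 2 members higher and 1 lower, 136 probe sets higher and 231 lower, and 1 biogenesis gene higher. Of 264 values of 66 named members under the scalings and the mean over probe sets, 259 moved by less than 0.28. The 5 that moved more were MIR130B (0.34), MIR2909 (-0.10), MIR3622A (-0.08) and MIR486-1 (-0.20) with the mean over probe sets, and MIR4530 (-0.37) after quantile normalization, where its other probe set became the brighter. No paired analysis was possible because each condition has 1 array.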
